A study of Mus musculus with 18 samples.

Results

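The transcripts of small extracellular vesicles (sEVs) released by microglia were compared with those of sEVs released by astrocytes. The comparison used 6 of the 18 libraries of the series, 3 of microglia sEVs and 3 of astrocyte sEVs, chosen by the sample names that the deposited key gives for the columns of the count table. The sEVs came from primary mouse brain cultures of microglia or of astrocytes. The labels give no strain, age, genotype, culture medium or stimulation for either group, so cell type and activation state cannot be told apart. The series asks how the packaging of mRNA into sEVs depends on the cell type that releases them, and here the cargo of 2 sources was compared. It also holds 3 libraries of neuron sEVs, which entered the fit, and 9 of microglia, astrocyte and neuron cells. All sEV libraries were prepared alike and sequenced in 1 pool, per the labels' protocols.

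sEVs are membrane particles that cells shed after fusion of multivesicular bodies with the plasma membrane or by budding from it, and they carry proteins, lipids and RNA. Microglia are the resident macrophages of the brain, and after Toll-like receptor or interferon signals they transcribe cytokine, chemokine and antiviral genes through NF-kB, IRF and STAT transcription factors. Astrocytes take up glutamate and potassium, supply neurons with metabolites and lipids, and carry the intermediate filament protein GFAP.

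Polyadenylated RNA was read as full-length cDNA on a PacBio instrument and counted per isoform. The 6 libraries held 479397 to 651943 reads, with reads for 12714 gene labels in all. Microglia sEV libraries detected 5369, 6395 and 7036 genes, and astrocyte sEV libraries 7215, 8250 and 9013. On the first principal component, which held 63.8% of the variance, the microglia sEVs lay on the opposite side of 0 from all other sEV libraries. Levels below are CPM, reads per 1000000 of the TMM-adjusted library size, given per library in the order of the replicate numbers or as mean ± SD with n = 3. Whether replicates came from separate cultures is not stated in the labels, and p-values therefore cover only the spread among these libraries, which may be technical. The table holds no value of 1, so a 0 can hide single reads. A 0 allows up to 3 reads per library by counting error alone, and folds against a group at 0 are given as "at least" against that floor. In bulk vesicle RNA, fewer vesicles that carry a transcript and fewer copies per vesicle cannot be told apart.

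Both labels were checked against cell type markers. Of 25 microglia markers 19 passed the filter on low counts and all 19 were higher in microglia sEVs, with summed levels of 20256 to 29850.0 RPM, a sum scaled to the raw library total, in microglia sEVs and 13 to 217 in astrocyte sEVs. Of these 19 genes, 8 had 0 reads in astrocyte sEVs and could differ in this direction only. The lysozyme gene Lyz2 stood at 10449.6, 8701 and 9653 CPM in microglia sEVs, against 0, 87.0 and 25.4 CPM in astrocyte sEVs. The myeloid transcription factor gene Spi1 stood at 696, 740.0 and 699 CPM in microglia sEVs and had 0 reads in astrocyte sEVs. Some genes that define microglia had few or 0 reads in their sEVs. Other receptor genes of the list, such as Trem2, Cd14 and Fcgr3, were among the 19 higher ones. The fractalkine receptor gene Cx3cr1 had 0, 0 and 4 reads, the CSF1 receptor gene Csf1r 19, 0 and 2, and Tmem119 and Itgam had 0 reads in microglia sEVs. All 4 genes had 0 reads in astrocyte sEVs. In microglia cells Csf1r had 118, 153 and 187 reads and Itgam 41, 51 and 92.

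Of 20 astrocyte markers 14 were tested, of which 11 were lower in microglia sEVs, 1 was higher and 2 did not pass the test, with sums of 3614 to 9264 RPM in microglia sEVs and 16891 to 30598 RPM in astrocyte sEVs. The higher one was Apoe, the lipid carrier that activated microglia also make, with 8462, 4059 and 3864 CPM in microglia sEVs, against 1312, 2518 and 1534 CPM in astrocyte sEVs (adjusted p = 0.0172, edgeR). Here too some defining genes had few reads: the water channel gene Aqp4 had 15, 0 and 0 reads in astrocyte sEVs and 0 in microglia sEVs, the glutamate transporter gene Slc1a2 0, 5 and 0 in astrocyte sEVs and 0 in microglia sEVs. In replicate 1 of the astrocyte sEVs most microglial genes were at 0, and replicates 2 and 3 held a few reads of many of them. What these reads contribute was not tested.

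Tested with edgeR (quasi-likelihood, Benjamini-Hochberg), 2248 of 6384 tested genes differed between microglia sEVs and astrocyte sEVs, 35.2% of those tested. Of these, 904 were higher in microglia sEVs (14.2% of the genes tested) and 1344 were lower (21.1%). A gene was tested where enough of the 9 sEV libraries held reads, neuron sEVs included, so genes read in 1 group alone entered through that group. A gene with 0 reads in microglia or astrocyte sEVs could differ in 1 direction only. This held for 10 of 21 NF-kB genes, 9 of 29 interferon-stimulated genes and 8 of 13 interferon-inducible GTPases. It also held for 4 of 15 chemokines, 5 of 11 interleukin and TNF family genes and 5 of 7 oligodendrocyte lineage markers. Genes with few reads in 1 group also passed the filter on low counts through the group where they were high. All listed chemokines together held 0.000488%, 0.0100% and 0.0135% of the reads in the astrocyte sEV libraries. Pattern recognition and inflammasome genes held 0.0013%, 0.00164% and 0.0032%. Counts of genes of either kind are not independent support. Among called genes, 616 of the higher and 955 of the lower ones passed 8-fold on the fitted log2 scale. Astrocyte sEVs had 0 reads of 279 of the higher genes, and microglia sEVs had 0 reads of 621 of the lower ones. The libraries of both groups did not overlap for 897 of the 904 higher and 1244 of the 1344 lower genes, against 49.3% of all tested genes. The split depended on the libraries in the fit. With only the 6 libraries of both groups 5144 genes were tested, 961 of them higher (18.7%) and 854 lower (16.6%). Of the calls above, 871 higher and 842 lower ones were called again. Genes outside these 5144 could not be called again, here and in the counts below for the 6 libraries. Over all tested genes the median log2 difference was -0.50, and it was -0.73 without TMM and -0.12 with only the 6 libraries, so list medians below are to be read against it. The gene lists overlap in part, and counts refer to the list members that could be tested. Where no overlap is mentioned, the libraries of both groups did not overlap for the genes named as higher or lower. A list median is given as fitted and, where genes had 0 reads in a group, with these set to their bound, which gave -0.43 for all tested genes.

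Chemokine and cytokine transcripts were among the most abundant in microglia sEVs and nearly missing from astrocyte sEVs. Ccl3, a chemokine that draws leukocytes, stood at 17666, 18026 and 15730.2 CPM in microglia sEVs, against 0, 24.9 and 20.9 CPM in astrocyte sEVs. The groups were far apart, 1122-fold in the means (adjusted p = 0.000277, edgeR), and no astrocyte library passed 25 CPM. Ccl4, a related chemokine of activated macrophages, averaged 12274 ± 1627 CPM in microglia sEVs and 15.8 ± 13.7 CPM in astrocyte sEVs, a 778-fold difference (adjusted p = 0.000345). Il12b, the p40 subunit shared by interleukins 12 and 23, stood at 6772, 13107 and 13444 CPM in microglia sEVs, against 0, 8.29 and 20.9 CPM in astrocyte sEVs. Replicate 1 was the lowest microglia library for this gene and still exceeded all astrocyte libraries, a log2 difference of 10.13 (adjusted p = 0.000276, edgeR). The few astrocyte reads set its size, and it was 11.58 without astrocyte sEV replicate 3.

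Of 22 listed chemokine genes 15 were tested and all 15 were higher in microglia sEVs (14 with only the 6 libraries in the fit), with a median log2 difference of 9.92 (9.17 with bounds), and together they took 6.02% of the reads in microglia sEVs and 0.008% in astrocyte sEVs. The neutrophil chemokine Cxcl2 averaged 429 ± 61.9 CPM and the T cell chemokine Cxcl9 876 ± 42.0 CPM in microglia sEVs, and both had 0 reads in astrocyte sEVs, so they were at least 86.7-fold and 177-fold higher. Cxcl10, the interferon-inducible ligand of Cxcr3, averaged 4275 CPM in microglia sEVs and 3.76 CPM in astrocyte sEVs. Of 23 interleukin and TNF family genes 11 were tested and all 11 were higher as well (median log2 10.39, 8.31 with bounds), with 3.07% of the reads in microglia sEVs and 0.009% in astrocyte sEVs. The pyrogenic cytokine Il1b stood at 2185, 3275 and 2743 CPM in microglia sEVs and had 0 reads in astrocyte sEVs, at least 552-fold higher (adjusted p = 9.61e-05, edgeR). Tnf, the cytokine for which the family is named, was at least 316-fold and Il6, an inducer of the acute-phase response, at least 60.7-fold higher, each with 0 reads in astrocyte sEVs. The difference was smallest for Il18, an inflammasome substrate, at 209, 175 and 144 CPM in microglia sEVs, against 87.1, 14.5 and 41.9 CPM in astrocyte sEVs (adjusted p = 0.0305, edgeR).

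**Figure D1:**
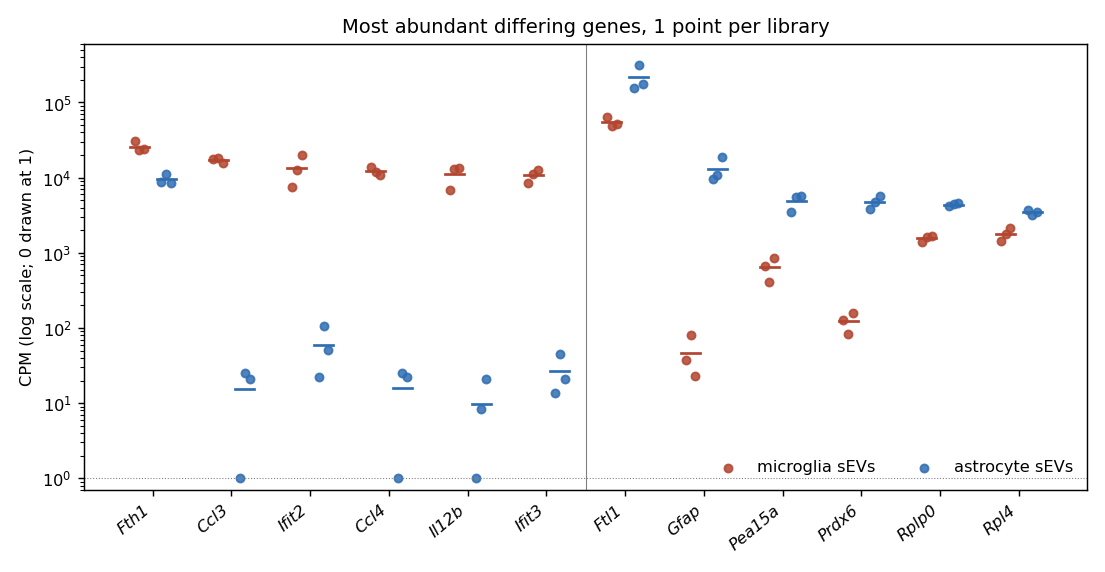
CPM per library on a log axis, with 0 drawn at 1, for the 6 most abundant genes that were higher in microglia sEVs and the 6 that were lower, microglia sEVs in red on the left and astrocyte sEVs in blue on the right of each gene; points are libraries (n = 3 each) and lines are means. Ccl3 averaged 17141 CPM in microglia sEVs and 15.3 in astrocyte sEVs, and Gfap 46.7 and 13143, while the points of both groups lie close together for Rpl4.

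Interferon-stimulated transcripts formed a second abundant group. Of 35 listed genes 29 were tested and all 29 were higher in microglia sEVs (median log2 8.44, 6.95 with bounds), taking 5.45% of the reads there and 0.0371% in astrocyte sEVs. Of 15 interferon-inducible GTPases 13 were tested and all 13 were higher too (median log2 8.46, 6.05 with bounds), with 1.58% of the reads in microglia sEVs and 0.0116% in astrocyte sEVs. The core of the interferon-stimulated response element, GAAA repeated after 2 bases of any kind, is the site that ISGF3 and related IRF factors bind. In RefSeq promoter windows of 250 bases before the start, searched on both strands, it was found in 76 of 718 genes higher in microglia sEVs that had a window (10.6%), in 22 of 1052 lower ones (2.09%) and in 936 of all 27025 windows (3.46%). Among the listed genes it was found for 8 of 21 interferon-stimulated genes and 8 of 8 GTPases with a window. These matches describe the letters only. For 5 genes of this group the stretch around the matches is shown 5′ to 3′ on the gene's strand, build GRCm38.p6 of the RefSeq table, with the matches in capitals (those of Ifit3 and Gbp2 read as the reverse complement, and the matches of Isg15 overlap).
Ifit3, chr19:34583353-34583436, plus strand: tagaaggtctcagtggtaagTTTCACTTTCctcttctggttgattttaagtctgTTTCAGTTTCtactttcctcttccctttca
Isg15, chr4:156200855-156200916, minus strand: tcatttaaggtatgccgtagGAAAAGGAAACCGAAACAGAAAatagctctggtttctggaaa
Ifi211, chr1:173913054-173913103, minus strand: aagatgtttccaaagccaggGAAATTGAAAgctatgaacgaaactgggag
Tgtp2, chr11:49064253-49064302, minus strand: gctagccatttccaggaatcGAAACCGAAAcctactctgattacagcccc
Gbp2, chr3:142620584-142620633, plus strand: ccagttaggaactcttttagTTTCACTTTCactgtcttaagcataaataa

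These genes differed widely in level. Ifit3, a member of the tetratricopeptide proteins that bind viral RNA, averaged 10844 ± 2124 CPM in microglia sEVs and 26.8 ± 16.7 CPM in astrocyte sEVs, 405-fold apart (adjusted p = 8.23e-05, edgeR). Its relative Ifit2 varied more, with 7503, 12489 and 20116 CPM in microglia sEVs, against 22.1, 106 and 50.9 CPM in astrocyte sEVs (224-fold, adjusted p = 8.23e-05, edgeR). The lowest microglia library was still far above the highest astrocyte library, although with full-splice matches alone Ifit2 did not pass the test (adjusted p = 0.113, edgeR). Without astrocyte sEV replicate 2, which held the most reads of both genes, the log2 difference of Ifit2 was 8.56 in place of 7.83 and that of Ifit3 9.32 in place of 8.68. Isg15, a ubiquitin-like modifier, averaged 2535 CPM in microglia sEVs and 2.38 CPM in astrocyte sEVs, and Cmpk2, a nucleotide kinase of mitochondria, 7910.5 CPM in microglia sEVs and 19.6 CPM in astrocyte sEVs. Ifi211, an interferon-inducible gene of the family of nucleic acid sensors with a HIN domain, had the highest bound among genes unread in astrocyte sEVs. It had 2128, 2449 and 3172 reads in microglia sEVs and 0 in all astrocyte sEV libraries, 4916 ± 712 CPM and at least 993-fold higher (adjusted p = 8.23e-05, edgeR).

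Other genes with 0 reads in all astrocyte sEV libraries followed in size. The GTPase genes Tgtp2 (3571 ± 1019 CPM in microglia sEVs) and Ifi47 (2039 ± 470.1 CPM), which act on vacuoles of intracellular pathogens, were at least 721-fold and at least 412-fold higher. Ifi209, of the same family as Ifi211, averaged 2156 ± 609 CPM and was at least 435-fold higher. Lilrb4a, an inhibitory receptor of myeloid cells, stood at 2685, 3463 and 3919.8 CPM in microglia sEVs, at least 678-fold higher. Slfn2, a schlafen gene of leukocytes, averaged 2871 ± 463 CPM, at least 580.0-fold higher. Acod1, the enzyme that makes itaconate in activated macrophages, stood at 1522, 2556 and 2285 CPM, at least 428-fold higher. The adjusted p-values of these 6 genes were 0.000103 or less by edgeR. Gbp2, a guanylate-binding protein, was the most abundant GTPase transcript, with 4069, 7140.1 and 7609 CPM in microglia sEVs, against 38.7, 64.2 and 26.9 CPM in astrocyte sEVs.

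Genes of innate sensing and its regulation moved in the same direction. Of 21 tested NF-kB feedback and signalling genes 20 were higher in microglia sEVs and none was lower (median log2 6.90, 5.19 with bounds). Sod2, the superoxide dismutase of mitochondria, averaged 2196 ± 144 CPM in microglia sEVs and 126 ± 53.7 CPM in astrocyte sEVs. Tnfaip3, which encodes the ubiquitin-editing inhibitor A20, stood at 273, 342 and 471 CPM in microglia sEVs and had 0 reads in astrocyte sEVs. Nfkbia, the inhibitor that holds NF-kB in the cytoplasm, averaged 157 ± 19 CPM in microglia sEVs and 2.76 ± 4.79 CPM in astrocyte sEVs (adjusted p = 0.00549, edgeR). The kappa-B motif, here GGGA, any base and TTTCC, was found on either strand in 11 of 718 promoter windows of genes higher in microglia sEVs (1.53%), 2 of 1052 of lower ones (0.19%) and 112 of all windows (0.414%). The window of Nfkbia holds 1, shown on the gene's strand with the match in capitals, where it reads as the reverse complement.
Nfkbia, chr12:55492648-55492696, minus strand: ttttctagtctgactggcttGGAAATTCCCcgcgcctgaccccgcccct

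Of 22 pattern recognition and inflammasome genes 15 were tested and all 15 were higher in microglia sEVs (median log2 9.24, 6.45 with bounds). Of these 15, 10 had 0 reads in astrocyte sEVs and could differ in this direction only. Cd14, the co-receptor for lipopolysaccharide, averaged 2759 ± 349.8 CPM in microglia sEVs and 10.2 ± 9.76 CPM in astrocyte sEVs, and Casp1, the inflammasome protease, 953 CPM in microglia sEVs against 2 reads in all astrocyte sEV libraries. The Toll-like receptor gene Tlr2 stood at 146, 117 and 96.3 CPM in microglia sEVs with 0 reads in astrocyte sEVs. The receptor gene Tlr4 had 30, 6 and 20 reads and the inflammasome gene Nlrp3 4, 27 and 45 reads in microglia sEVs, too few to be tested, and 0 in astrocyte sEVs.

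Of 21 genes of MHC class I and peptide loading 14 were tested and all 14 were higher (median log2 5.05, 4.67 with bounds). B2m, the invariant light chain, stood at 1861, 1253 and 1318 CPM in microglia sEVs, against 52.5, 33.2 and 31.4 CPM in astrocyte sEVs, 37.9-fold apart (adjusted p = 8.23e-05, edgeR). The immunoproteasome subunit gene Psmb8 averaged 1250.3 ± 227 CPM with 0 reads in astrocyte sEVs, at least 253-fold higher. Of 13 complement and Fc receptor genes 12 were higher and none lower (median log2 8.70, 7.59 with bounds). The anaphylatoxin receptor genes C5ar1 and C3ar1 averaged 1151 and 1092 CPM in microglia sEVs with 0 reads in astrocyte sEVs.

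Of 17 tested disease-associated microglia genes 15 were higher in microglia sEVs and none was lower (median log2 7.04, 6.17 with bounds). Spp1, which encodes the secreted glycoprotein osteopontin, stood at 3315, 2647 and 4177 CPM in microglia sEVs, against 0, 18.7 and 46.4 CPM in astrocyte sEVs, and Lgals3, galectin-3, at 4241, 3611 and 3832 CPM in microglia sEVs and 5.53, 10.4 and 15 CPM in astrocyte sEVs. Of 3 tested homeostatic microglia genes 1 was higher and 2 were lower. The lower ones were the transcription factor gene Sall1 (19.7 ± 19.3 CPM in microglia sEVs and 238 ± 111 CPM in astrocyte sEVs) and the matrix protein gene Sparc (3.50 ± 6.06 CPM in microglia sEVs and 66.2 ± 21.8 CPM in astrocyte sEVs).

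Of 26 cathepsin and lysosome genes 22 were higher in microglia sEVs and none was lower (median log2 4.45, 4.09 with bounds), with 3.12% of the reads in microglia sEVs and 0.208% in astrocyte sEVs. The protease gene Ctsb stood at 5499.6, 3065 and 4970.3 CPM in microglia sEVs, against 106, 203 and 91.3 CPM in astrocyte sEVs (33.8-fold, adjusted p = 8.16e-05, edgeR). Lamp1, a membrane protein of all lysosomes, differed less, with 452, 472 and 432 CPM in microglia sEVs and 74.7, 68.4 and 129 CPM in astrocyte sEVs. Genes of secreted and matrix proteins were split, 3 higher and 5 lower of 8. The collagenase gene Mmp13 (2149.8 CPM in microglia sEVs and 1.99 CPM in astrocyte sEVs) and the elastase gene Mmp12 (1317 CPM in microglia sEVs and 7.64 CPM in astrocyte sEVs) were higher, and the brain proteoglycan gene Bcan (0 reads in microglia sEVs and 58.1 ± 27.2 CPM in astrocyte sEVs) was lower.

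Transcripts of the vesicle machinery itself were less far apart. Of 22 tested EV biogenesis and surface genes 10 were higher in microglia sEVs and none was lower, with a median log2 difference of 0.96. Among all tested genes 14.2% were higher and 21.1% lower, with a median of -0.50. Sdcbp, which encodes the exosome adaptor syntenin, stood at 2598, 4485 and 5089 CPM in microglia sEVs, against 496, 412 and 769 CPM in astrocyte sEVs (7.26-fold, adjusted p = 0.000297, edgeR). The tetraspanin gene Cd63 averaged 947 ± 318 CPM in microglia sEVs and 173 ± 22.7 CPM in astrocyte sEVs and the membrane-binding annexin gene Anxa5 3019 ± 366 CPM in microglia sEVs and 332 ± 81.3 CPM in astrocyte sEVs. Other vesicle markers did not pass the test: the tetraspanin gene Cd81 stood at 427, 363 and 343 CPM in microglia sEVs, against 574, 783 and 524 CPM in astrocyte sEVs (adjusted p = 0.0964, edgeR), and the ESCRT gene Tsg101 at 146, 235 and 217 CPM in microglia sEVs and 192, 155 and 190.0 CPM in astrocyte sEVs (adjusted p = 0.762). Of 14 genes of RNA sorting proteins 1 was lower, Hnrnpa1 (264 ± 87.3 CPM in microglia sEVs and 546 ± 136 CPM in astrocyte sEVs), a splicing regulator, and none was higher. Both counts lay below the shares of 21.1% lower and 14.2% higher among all tested genes. Hnrnpa2b1, implicated in loading of miRNAs into exosomes, averaged 244 ± 46.4 CPM in microglia sEVs and 149 ± 46.9 CPM in astrocyte sEVs (adjusted p = 0.221).

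Cytoskeletal genes were split by kind. Of 26 tested actin, thymosin and tubulin genes 13 were higher in microglia sEVs and 7 lower. All higher ones but 1 were genes of actin turnover or its regulators. Tmsb4x, the actin monomer binder thymosin beta-4, stood at 10413, 10172 and 8391 CPM in microglia sEVs, against 1304, 632 and 1578 CPM in astrocyte sEVs, and the actin-capping gene Capg averaged 3602 ± 168 CPM in microglia sEVs and 14.5 ± 4.89 CPM in astrocyte sEVs (248-fold, adjusted p = 8.23e-05, edgeR). Of 9 tested tubulin genes 6 were lower. Tuba1a stood at 21.4, 74.2 and 105 CPM in microglia sEVs, against 1474, 1156 and 1173 CPM in astrocyte sEVs (19-fold lower, adjusted p = 0.000234, edgeR), and Tubb2b averaged 16.2 ± 14.5 CPM in microglia sEVs and 592 ± 9.55 CPM in astrocyte sEVs. Tuba1c was the exception among them, with 56.5, 51.5 and 36.8 CPM in microglia sEVs and 0 reads in astrocyte sEVs.

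Astrocyte transcripts were among the most abundant of the lower genes. Gfap, the intermediate filament of astrocytes, stood at 37.0, 80.4 and 22.8 CPM in microglia sEVs, against 9659, 10731 and 19039.8 CPM in astrocyte sEVs. The groups did not overlap, and the difference was 281-fold (log2 -8.14, adjusted p = 7.93e-05, edgeR), with a log2 difference of -8.79 without microglia sEV replicate 2. Pea15a, a phosphoprotein enriched in astrocytes, averaged 641 ± 217 CPM in microglia sEVs and 4906 ± 1207 CPM in astrocyte sEVs, 7.66-fold lower (adjusted p = 0.000211). Prdx6, a peroxiredoxin with phospholipase activity, stood at 129, 84.5 and 159 CPM in microglia sEVs, against 3785, 4779 and 5617 CPM in astrocyte sEVs, 38.1-fold lower (adjusted p = 6.34e-05). Of 24 tested genes of astrocyte metabolism and transport 15 were lower, with Apoe the only higher one (median log2 -3.01, -2.96 with bounds). Fabp7, the brain fatty acid binding protein, averaged 13.1 ± 5.34 CPM in microglia sEVs and 2486 ± 1005 CPM in astrocyte sEVs, the aldolase gene Aldoc 28.0 ± 4.06 CPM in microglia sEVs and 1177 ± 504 CPM in astrocyte sEVs, and Ckb, the brain creatine kinase, 253 ± 31.7 CPM in microglia sEVs and 1717 ± 430.3 CPM in astrocyte sEVs. Acsbg1, an acyl-CoA synthetase gene, had 0 reads in microglia sEVs and 147, 247 and 236 CPM in astrocyte sEVs, at least 36.4-fold lower.

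Of 13 tested reactive astrocyte genes 7 were higher in microglia sEVs and 2 lower (median log2 6.77, 2.80 with bounds). The higher ones were Gbp2, Cxcl10, Psmb8, H2-D1, H2-T23, Srgn and Cd44. The first 5 also stand in the interferon, chemokine or MHC lists, Srgn encodes a granule proteoglycan of leukocytes and Cd44 a hyaluronan receptor. The lower ones were Gfap and the sphingosine phosphate receptor gene S1pr3, with 0 reads in microglia sEVs and 0, 164 and 43.4 CPM in astrocyte sEVs, where replicate 1 overlapped with the microglia sEVs (adjusted p = 0.0479, edgeR). Of 15 tested glycolysis genes 4 were higher and 3 lower, beside 14.2% higher and 21.1% lower among all tested genes. The lactate dehydrogenase genes differed in direction: Ldha averaged 409.5 ± 104 CPM in microglia sEVs and 210.3 ± 52.1 CPM in astrocyte sEVs and Ldhb 132 ± 36.5 CPM in microglia sEVs and 1911 ± 583 CPM in astrocyte sEVs (adjusted p = 0.0408 and 9.24e-05, edgeR).

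Among the largest lower differences were transcripts of myelin-forming cells. Of 14 oligodendrocyte lineage markers 7 were tested and all 7 were lower in microglia sEVs (median log2 -8.63, -4.06 with bounds), with sums of 22.8 to 99.7 RPM in microglia sEVs and 2660.5 to 4348 RPM in astrocyte sEVs. Mbp, the myelin basic protein gene, had 0 reads in microglia sEVs and 1763, 1791 and 1009.9 CPM in astrocyte sEVs, a difference of at least 264-fold (edgeR adjusted p = 0.000364). Bcas1, a gene of early myelinating oligodendrocytes, had 0 reads in microglia sEVs and 865, 545 and 572 CPM in astrocyte sEVs, at least 115-fold lower (adjusted p = 8.23e-05). Of 10 tested neuron markers 5 were lower and 1 higher, with sums of 14.6 to 114 RPM in microglia sEVs and 432 to 486 RPM in astrocyte sEVs. The growth cone gene Gap43 averaged 17.1 ± 18.5 CPM in microglia sEVs and 181 ± 55.3 CPM in astrocyte sEVs. The higher one, the tubulin regulator gene Stmn2, rested on 0, 2 and 9 reads in microglia sEVs and 0 in astrocyte sEVs, with overlapping groups. With only the 6 libraries in the fit, 6 oligodendrocyte lineage markers were lower, and of the neuron markers 1 was lower, Gap43, and 0 were higher. The part of oligodendrocyte and neuron transcripts in the other lower genes was not tested. Of the fibroblast and vessel markers only the smooth muscle actin gene Acta2 was tested and was lower, at 2.33 ± 4.04 CPM in microglia sEVs and 33.9 ± 27.1 CPM in astrocyte sEVs, and it was not tested with only the 6 libraries. Of the ependyma and choroid plexus markers 1 was tested and did not pass, and no blood cell marker could be tested (summed levels of 0 to 39.6 RPM in microglia sEVs and 0 to 8.20 RPM in astrocyte sEVs).

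Other genes with 0 reads in microglia sEVs belonged to no list. Stradb, a pseudokinase partner of the kinase LKB1, stood at 882, 1556 and 1014 CPM in astrocyte sEVs, which made it at least 199.8-fold lower in microglia sEVs (edgeR adjusted p = 8.16e-05). Unc119b, a trafficking factor for lipid-modified proteins, stood at 911, 1254 and 1134 CPM there, at least 191-fold lower (adjusted p = 0.0295). Its call was lost without any 1 of 5 libraries (adjusted p 0.0617 to 0.0776, edgeR) and with full-splice matches alone (0.0811). With only the 6 libraries in the fit Unc119b was called lower. The neuron sEVs, which enter the main fit, had 2, 0 and 1021 reads of it. The transcription factor gene Zbtb20 (585, 1534 and 629.9 CPM in astrocyte sEVs), the secreted neurotrophic factor gene Metrn (640.1, 1121 and 827 CPM) and the membrane protein gene Mmd2 (575, 951 and 733 CPM) were at least 159-fold, 149.8-fold and 131-fold lower. Rcc2, a regulator of chromosome condensation, had 0, 2 and 0 reads in microglia sEVs and 2178, 2228 and 1745 reads in astrocyte sEVs (3413 ± 1062 CPM, adjusted p = 0.000205, edgeR), and without microglia sEV replicate 2 it was unread in microglia sEVs. These transcripts were not particular to astrocyte sEVs. Neuron sEVs averaged 2250 CPM of Stradb, 317 of Zbtb20, 2360 of Metrn, 872 of Mmd2 and 5853 of Rcc2.

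The lists of ribosomal protein, translation factor and nuclear-encoded respiratory chain genes stayed near the background of all genes in their medians. The median of mitochondrially encoded genes was lower, at -1.14. Counts of these lists are to be read against 14.2% higher and 21.1% lower among all tested genes. Of 77 tested cytosolic ribosomal protein genes 3 were higher and 19 lower in microglia sEVs, and 3 and 10 with only the 6 libraries in the fit. Their median log2 difference was -0.18, above that of all tested genes, although their summed share was lower, 1.89% in microglia sEVs and 3.57% in astrocyte sEVs. Rplp0, a protein of the ribosomal stalk, stood at 1397, 1645 and 1681 CPM in microglia sEVs, against 4223, 4414 and 4541 CPM in astrocyte sEVs (2.79-fold lower, adjusted p = 0.000747, edgeR). Rpl4 averaged 1783 ± 338 CPM in microglia sEVs and 3504 ± 256 CPM in astrocyte sEVs, 1.96-fold lower (adjusted p = 0.0103). Rpl22 was lowest against its level in astrocyte sEVs, at 17.5, 8.24 and 10.5 CPM in microglia sEVs, against 288, 249 and 335 CPM (24.0-fold lower, adjusted p = 8.23e-05, edgeR). Rps24 went the other way, at 101, 94.8 and 68.3 CPM in microglia sEVs with 0 reads in astrocyte sEVs. Ribosomal protein genes and Ftl1 have many processed pseudogenes, so reads could be assigned to a copy.

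Of 55 translation factor genes 8 were higher and 7 lower, beside 14.2% and 21.1% of all tested genes. Initiation factor genes were on both sides, such as the helicase gene Eif4a1 (2116 ± 258 CPM in microglia sEVs and 682 ± 70.5 CPM in astrocyte sEVs) and its cofactor gene Eif4b (64.5 ± 39.9 CPM in microglia sEVs and 550.0 ± 83.4 CPM in astrocyte sEVs), and the elongation factor gene Eef2 was lower (526 ± 98.1 CPM in microglia sEVs and 2253 ± 511 CPM in astrocyte sEVs). Of 78 nuclear-encoded respiratory chain genes 2 were higher and 11 lower (median log2 -0.48), and 7 were lower with only the 6 libraries. Cytochrome c, Cycs, averaged 1624 ± 279 CPM in microglia sEVs and 556 ± 162 CPM in astrocyte sEVs, and the ATP synthase subunit gene Atp5a1 425 ± 107 CPM in microglia sEVs and 1429 ± 262 CPM in astrocyte sEVs. Of 9 mitochondrially encoded genes 2 were lower, mt-Cytb and mt-Nd2, of which mt-Nd2 was not tested with only the 6 libraries. The cytochrome b gene mt-Cytb spread widely, with 56.5, 6.18 and 10.5 CPM in microglia sEVs, against 741, 2327 and 331 CPM in astrocyte sEVs.

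Of 5 tested long non-coding RNAs 4 were lower and none was higher. Malat1, a nuclear-retained RNA of speckles, stood at 60.4, 39.2 and 26.3 CPM in microglia sEVs, against 3469.9, 1082 and 1477 CPM in astrocyte sEVs, 47.9-fold lower (adjusted p = 0.000154, edgeR). Norad, which sequesters Pumilio proteins, averaged 104 ± 55.6 CPM in microglia sEVs and 371 ± 95.1 CPM in astrocyte sEVs. Of 12 histone genes 2 were higher and 2 lower, of 18 chaperone genes 3 and 1, of 8 immediate early genes 4 and 2, and of 17 cell cycle genes 2 and 2. Among all tested genes the shares were 14.2% higher and 21.1% lower. The small heat shock protein gene Cryab was the lower chaperone, at 13.6, 6.18 and 5.25 CPM in microglia sEVs, against 676, 651 and 848 CPM in astrocyte sEVs. The stress-induced transcription factor gene Atf3 averaged 848 ± 137 CPM in microglia sEVs and 10.2 ± 11.3 CPM in astrocyte sEVs, and Jun, which dimerises with Fos or Atf proteins, 10.9 ± 5.34 CPM in microglia sEVs and 64.8 ± 17.8 CPM in astrocyte sEVs.

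**Figure D2:**
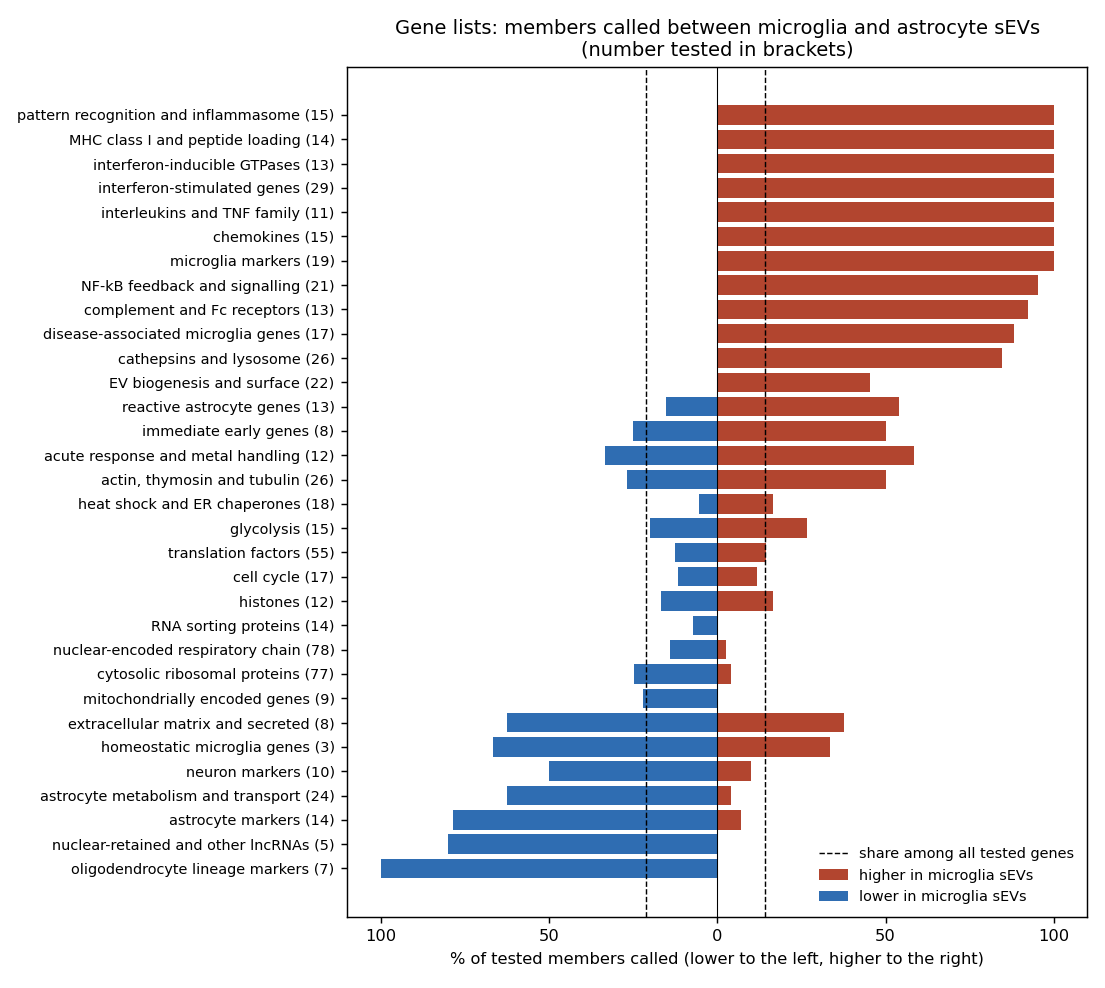
Percent of the tested genes of each list that were higher (red, right) or lower (blue, left) in microglia sEVs than in astrocyte sEVs, for lists with 3 or more tested genes; dashed lines mark the shares among all tested genes, 14.2% higher and 21.1% lower. All tested chemokine, interferon-stimulated and pattern recognition genes were higher, and all tested oligodendrocyte lineage markers were lower. In these lists 4 of 15, 9 of 29, 10 of 15 and 5 of 7 genes had 0 reads in 1 group and could differ in 1 direction only. Other genes with few reads in 1 group passed the filter on low counts through the group where they were high. The counts of these lists are therefore not independent support.

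Iron and metal handling genes were split. Of 12 tested genes of the acute response and metal handling list 7 were higher in microglia sEVs and 4 lower, the metallothionein genes Mt1, Mt2 and Mt3, which bind zinc and copper, and Ftl1. The 2 ferritin subunits, which form the iron storage shell, differed in opposite directions. Ftl1, the light chain, stood at 64881, 48600.0 and 51319 CPM in microglia sEVs, against 157133, 318565 and 175178 CPM in astrocyte sEVs, 3.95-fold lower (log2 -1.98, adjusted p = 0.00208, edgeR). Fth1, the heavy chain with the ferroxidase site, stood at 30374, 23284 and 24069 CPM in microglia sEVs, against 8838, 11114 and 8595 CPM in astrocyte sEVs, 2.72-fold higher (adjusted p = 0.00155, edgeR). Neither gene overlapped between the groups, and astrocyte sEV replicate 2 was the highest for Ftl1.

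Ftl1 took 6.94%, 4.47% and 4.50% of the reads in microglia sEVs, against 18.5%, 31.5% and 19.7% in astrocyte sEVs. There were 2.14, 2.09 and 2.13 Ftl1 reads per Fth1 read in microglia sEVs, against 17.8, 28.7 and 20.4 in astrocyte sEVs. In the source cells it was 1.85 ± 0.0415 for microglia and 2.46 ± 0.0732 for astrocytes, and in neuron sEVs 14.6 ± 3.47 (SD, n = 3 each). An exact two-sided permutation test of the ratio between microglia sEVs and astrocyte sEVs gave p = 0.1, the smallest that 3 against 3 libraries allow. A single isoform that matches the reference held 86096 of 86183 Ftl1 reads in microglia sEVs and 384436 of 384469 in astrocyte sEVs. As Ftl1 takes so much of the astrocyte libraries, the fit was repeated without its reads, which gave 916 higher and 1317 lower genes. Leaving out also the predicted genes Gm42047, Gm20186 and 5031425E22Rik gave 924 and 1290. Gm42047 took 0.00167%, 0.0607% and 0.012% of the reads in microglia sEVs, against 6.76%, 1.30% and 0.868% in astrocyte sEVs. Both sets of reads to leave out were chosen after seeing the data.

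**Figure D3:**
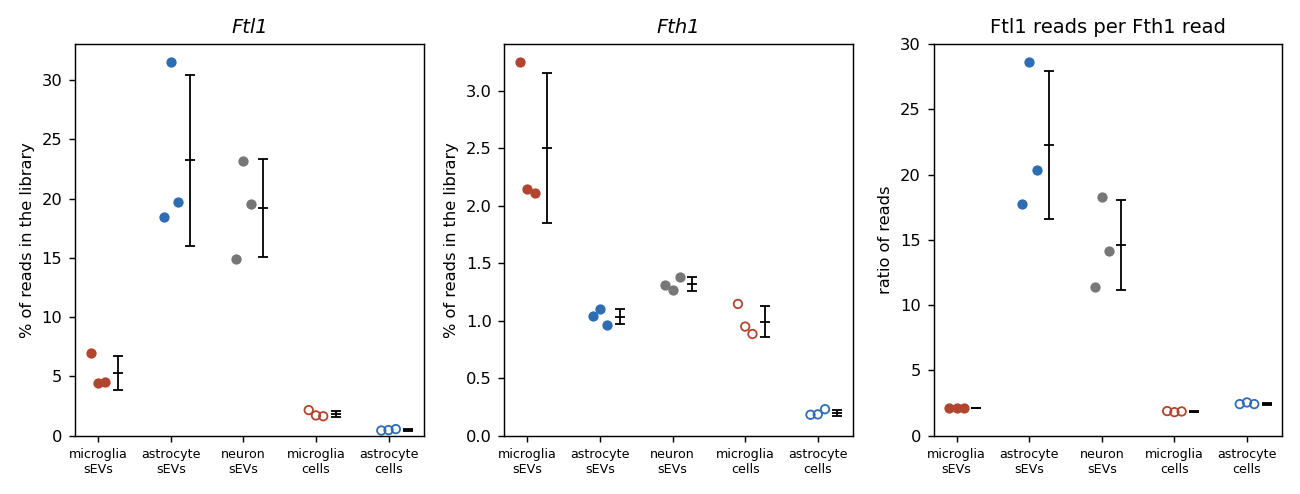
Percent of library reads from Ftl1 (left) and Fth1 (middle) and the ratio of Ftl1 to Fth1 reads (right) in microglia sEVs, astrocyte sEVs, neuron sEVs, microglia cells and astrocyte cells; points are libraries and bars are mean ± SD (n = 3 each). The ratio lies between 2.09 and 2.14 in microglia sEVs and between 17.8 and 28.7 in astrocyte sEVs.

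To see which differences between the sEVs also stood between their source cells, the same test was made between microglia cells and astrocyte cells, in a fit of all 18 libraries, from which the cell levels below come. In cells 2893 of 8184 genes differed (35.3%), 1232 higher (15.1%) and 1661 lower (20.3%) in microglia cells. sEV and cell libraries had different RNA kits and sequencing pools, per the labels' protocols, so fraction and pool cannot be told apart. Of 901 genes higher in microglia sEVs that were tested in cells, 883 had the same sign in cells (98.0%) and 770 were called in the same direction (85.5%). Of 1342 lower genes, 1237 had the same sign (92.2%) and 795 were called in the same direction (59.2%). No same-sign share over all genes tested in both is given beside these. Across the 6349 genes tested in both, the sEV and cell log2 differences correlated with Pearson's r = 0.83 and Spearman's rho = 0.787, a description over genes, which are not independent replicates. Genes with 0 reads in a group entered with fitted values, such as 14.42 in sEVs and 13.78 in cells for Ifi211. Their weight in the correlations was not tested. The difference between both contrasts was called for 103 of 8184 genes (1.26%), of which 36 were higher (0.44%) and 67 lower (0.819%) in sEVs than the cell difference. The count fell to 51 without microglia cell replicate 3 and to 54 without microglia cell replicate 2 or astrocyte cell replicate 1, was 63 and 65 without astrocyte cell replicates 2 and 3, and was 448 with DESeq2. Without TMM the same test gave 157 higher and 40 lower, and over all genes the median difference was then 0.50 in place of 0. Genes with 0 reads in the same source in both sEVs and cells gave no usable estimate. The standard error was 1298 on the log2 scale for Ifi211 and 2318 for Mbp. The share of 1.26% therefore does not show that the other genes had equal differences in sEVs and cells.

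In the source cells the lists stood at levels that were close to those of the sEVs for some and far from them for others. Chemokine genes summed to 35791 to 38155 RPM in microglia cells and 33.5 to 152 RPM in astrocyte cells, interleukin and TNF family genes to 31923 to 38049 and interferon-stimulated genes to 42265 to 49560.4 RPM in microglia cells, with 148 to 191 and 335 to 465 RPM in astrocyte cells. Oligodendrocyte lineage markers summed to 95.8 to 101 RPM in microglia cells and 4817 to 10466 RPM in astrocyte cells, so myelin transcripts were read in the astrocyte cultures too. Cathepsin and lysosome genes summed to 116117 to 123058 RPM in microglia cells and 19785 to 28863 RPM in astrocyte cells, and disease-associated microglia genes to 117060.2 to 121473 RPM in microglia cells and 44676 to 54928 RPM in astrocyte cells, in each case above the sEVs of the same source. The acute response and metal handling list, which holds Ftl1, summed to 196775 to 326941 RPM in astrocyte sEVs and 7868 to 9666 RPM in astrocyte cells. Ccl3 averaged 10229 ± 558 CPM in microglia cells and had 0 reads in astrocyte cells, and Gfap averaged 90.6 ± 114 CPM in microglia cells and 11097 ± 1412 CPM in astrocyte cells. Rcc2 had a much lower level in both cell types than in astrocyte sEVs, with 1.56 ± 2.70 CPM in microglia cells and 18 ± 20.9 CPM in astrocyte cells.

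Among the genes called in sEVs, 1 higher and 8 lower genes were called in the opposite direction in cells. Spcs2, a subunit of the signal peptidase complex, was the higher one, with 405, 348 and 448 CPM in microglia sEVs, against 174, 141 and 135 CPM in astrocyte sEVs, and lower in microglia cells, with 707 ± 71.2 CPM in microglia cells and 1314 ± 109 CPM in astrocyte cells. The difference of both contrasts was 2.30 on the log2 scale (adjusted p = 0.00161, edgeR). Lower in microglia sEVs but higher in microglia cells were Ftl1 and 7 others, Gskip, Csnk1d, Ankrd17, Kctd10, Poldip3, Ppp1r15b and Wars. Ftl1 averaged 27586 ± 2628 CPM in microglia cells and 4296 ± 964 CPM in astrocyte cells. Gskip, an inhibitor of the kinase GSK3B, averaged 177 ± 30.4 CPM in microglia sEVs and 525 ± 82.9 CPM in astrocyte sEVs, against 97.7 ± 27.7 CPM in microglia cells and 40.4 ± 14.4 CPM in astrocyte cells. The circadian kinase gene Csnk1d averaged 92.1 ± 17.4 CPM in microglia sEVs and 243 ± 39.0 CPM in astrocyte sEVs. With only the 6 sEV libraries in the fit the sEV calls of Ankrd17, Poldip3 and Wars were lost. With each of 12 libraries left out in turn, the difference of both contrasts passed in 4 fits for Ankrd17 and 8 for Poldip3, and in all 12 for the other 7 genes. Without TMM the cell call of all of these was lost except for Spcs2, Ftl1 and the tryptophan-tRNA ligase gene Wars.

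For other genes the size of the difference was far apart in sEVs and cells. Stradb had 0 reads in microglia sEVs and averaged 1151 ± 357 CPM in astrocyte sEVs, while its levels in cells, 14.3 ± 4.35 CPM in microglia cells and 26.8 ± 5.45 CPM in astrocyte cells, did not pass the test (log2 -0.92, adjusted p = 0.133, edgeR). Without TMM the cell difference was -1.74 and passed (adjusted p = 0.00598). Its main isoform, a full-splice match, had 0 reads in microglia sEVs and 1351 in astrocyte sEVs, and 11 and 42 reads in microglia and astrocyte cells. Sparcl1, the synapse-organising protein hevin of astrocytes, was the reverse. It averaged 16.1 ± 11.2 CPM in microglia sEVs and 122 ± 44.5 CPM in astrocyte sEVs, 7.57-fold lower (log2 -2.89, and -3.56 without microglia sEV replicate 3), and 5.60 ± 5.04 CPM in microglia cells against 3276 ± 1563 CPM in astrocyte cells. Cdip1, a p53 target in cell death, had 0 reads in microglia sEVs and 147, 176 and 151 CPM in astrocyte sEVs, at least 27.4-fold lower, and averaged 18.7 ± 4.17 CPM in microglia cells and 109 ± 12.9 CPM in astrocyte cells. Neuron sEVs held it too, at 274 ± 29.4 CPM.

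**Figure D4:**
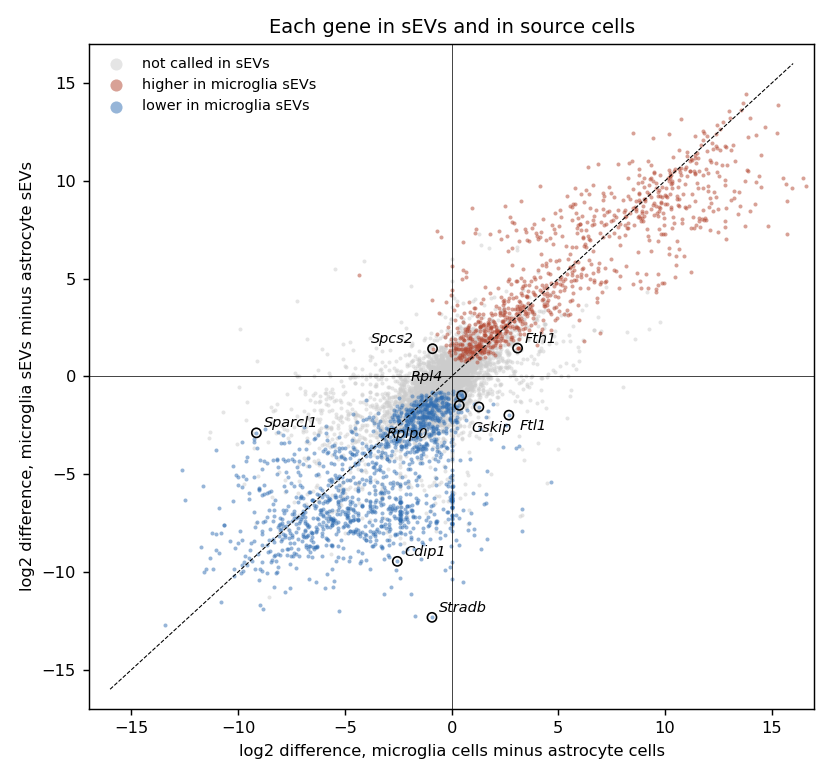
Log2 difference between microglia cells and astrocyte cells (horizontal) and between microglia sEVs and astrocyte sEVs (vertical) for genes tested in both, with the dashed line of equal differences; circles mark 9 named genes whose sEV difference differed from the cell difference. Most genes lie along the line (Pearson's r = 0.83), Ftl1 and Gskip lie below it with opposite signs, and Spcs2 and Sparcl1 lie above it.

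Single isoforms were tested in the same way. Of 5963 tested isoforms 1713 differed (28.7%), 813 higher (13.6%) and 900 lower (15.1%) in microglia sEVs. With 1 library left out the count fell to between 952 and 1443, and it was over 1.5 times lower without astrocyte sEV replicates 2 (1134) or 3 (1107) or microglia sEV replicates 1 (1041), 2 (952) or 3 (1068). By structural class, 658 were higher and 773 lower of 5061 isoforms that match a reference splice chain in full, and 49 and 47 of 418 fragments of one. Of 296 isoforms that combine known splice sites anew 54 were higher and 46 lower, and of 182 with sites outside the annotation 49 and 34. No test was made between the classes. Of the 6 named isoforms with the smallest adjusted p-values (0.000255 for each, edgeR), 5 were lower. The Gstm5 isoform, a glutathione transferase, stood at 57.0, 66.5 and 56.8 CPM in microglia sEVs, against 827, 956 and 900.0 CPM in astrocyte sEVs. Dpysl3, a protein of axon growth, had an isoform with another 5′ end at 0 reads in microglia sEVs and 490.0 ± 46.9 CPM in astrocyte sEVs. Isoforms of Prdx6 (log2 -5.09), Fabp7 (log2 -7.61) and Aldoc (log2 -5.45) were lower too. The isoform of Tspo, the mitochondrial protein that tracers of brain inflammation bind, was higher, at 1403, 972 and 854 CPM in microglia sEVs, against 4.78, 8.36 and 3.59 CPM in astrocyte sEVs.

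Relative use of isoforms was tested in 941 genes with 2 or more tested isoforms, and 25 differed (2.66%) by edgeR's diffSpliceDGE with gene-level Simes p-values. H3f3b, a gene of the replication-independent histone H3.3, gave the smallest p (adjusted p = 0.000126). An isoform with another 3′ end held 60.9%, 96.4% and 97.1% of its reads in microglia sEVs and 0 of 5682 reads in astrocyte sEVs. In cells it held 95.5%, 95.7% and 22.2% in microglia and 0% in astrocytes. Lims1, an adaptor of integrin-linked kinase, had an isoform with an exon outside the annotation at 64.7%, 48.2% and 51.4% in microglia sEVs and 0 of 305 reads in astrocyte sEVs (adjusted p = 0.000315). It held 39.9%, 39.5% and 48.0% in microglia cells. Marcksl1, an actin-binding substrate of protein kinase C, likewise had an isoform with such an exon at 31.9%, 44.6% and 18% in microglia sEVs and 0 of 467 reads in astrocyte sEVs (adjusted p = 0.000315), against 4.79%, 3.66% and 9.47% in microglia cells.

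For 3 other genes the isoform was read in astrocyte sEVs and had 0 reads in microglia sEVs. An isoform of Ssna1, a microtubule-binding protein, with another 5′ end held 0 of 126 reads in microglia sEVs, against 42.0%, 52.1% and 41.2% in astrocyte sEVs (adjusted p = 0.000315, diffSpliceDGE). A form of Rpl13a with another 3′ end held 0 of 597 reads in microglia sEVs, against 7.56%, 15.8% and 15.5% in astrocyte sEVs (adjusted p = 0.000422). For Ctnnbl1, a spliceosome-associated protein, a fragment of the 5′ part held 0 of 129 reads in microglia sEVs, against 64.9%, 81.8% and 39.2% in astrocyte sEVs (adjusted p = 0.000559), and 0%, 6.67% and 0% in astrocyte cells. The count of 25 genes was 7 without microglia sEV replicate 1 or without replicate 2, so it rests on these libraries.

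**Figure D5:**
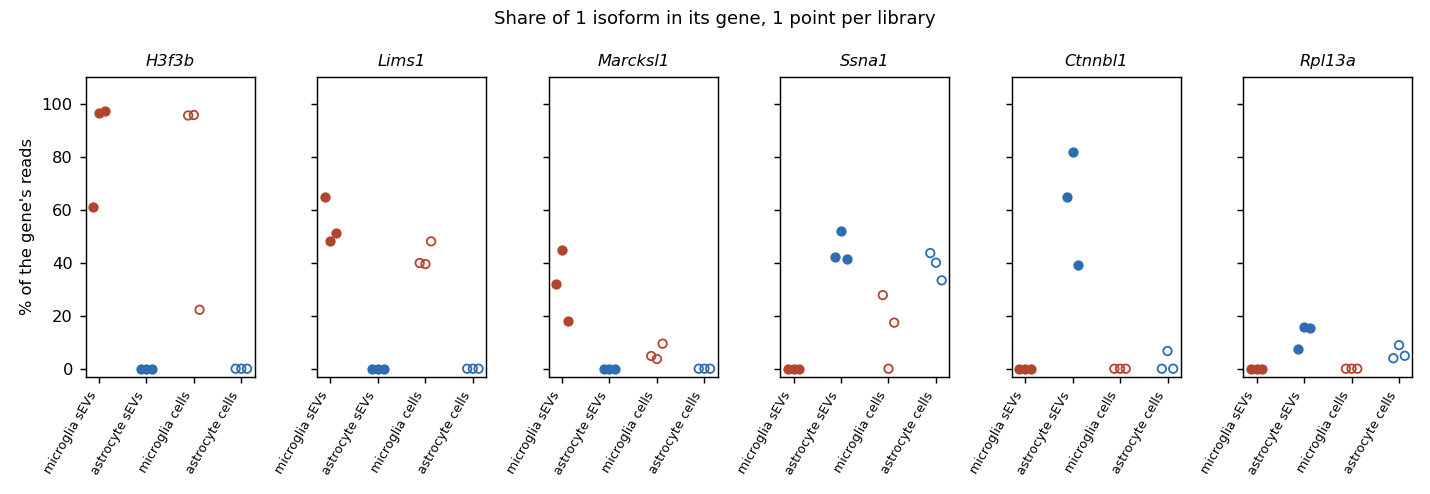
Percent of the reads of a gene that came from 1 named isoform in microglia sEVs, astrocyte sEVs, microglia cells and astrocyte cells, for H3f3b, Lims1, Marcksl1, Ssna1, Ctnnbl1 and Rpl13a; points are libraries. The H3f3b isoform lies between 60.9% and 97.1% in microglia sEVs and at 0% in astrocyte sEVs.

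The structural classes of the reads were compared as shares of each library. Full-splice matches took 86.3 ± 2.80% of the reads in microglia sEVs and 81.7 ± 3.29% in astrocyte sEVs (SD, n = 3 each; exact permutation p = 0.2), with overlapping groups. Mono-exon isoforms took 0.753%, 0.998% and 0.788% in microglia sEVs, against 3.32%, 2.70% and 2.14% in astrocyte sEVs. Fragments of the 5′ part took 0.897%, 0.936% and 0.859% in microglia sEVs, against 0.665%, 0.542% and 0.498% in astrocyte sEVs. Intron-retaining isoforms took 1.29 ± 0.0807% in microglia sEVs and 1.78 ± 0.335% in astrocyte sEVs. Isoforms that combine known splice sites anew took 2.48%, 2.92% and 3.27% in microglia sEVs, against 3.59%, 3.46% and 3.56% in astrocyte sEVs. Except for full-splice matches, the groups did not overlap in these shares. The same held for most of the 47 shares compared, gene lists included. Each exact two-sided permutation test without overlap gave p = 0.1, the smallest possible, which was 0.127 after adjustment over the 47 shares. Isoforms with sites outside the annotation overlapped between the groups. Reads of mitochondrially encoded genes took 0.0991 ± 0.0629% in microglia sEVs and 0.289 ± 0.259% in astrocyte sEVs, with overlapping groups.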

How the data were processed

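Polyadenylated RNA of 18 libraries was amplified with a low-input cDNA kit, reamplified and sequenced on a PacBio Sequel II, with sEV and cell libraries in separate pools, per the labels' protocols. The authors deposited a table of read counts per isoform, made with minimap2 and GRCm39 per the submitters' processing notes. Neither the isoform caller nor its annotation is given in the sources used here. It lists 114425 isoforms of 17714 gene labels as whole numbers with no normalization, no molecular identifiers and no value between 0 and 2. Library totals of the 6 libraries were 479397 to 651943 reads, and intervals or floors cover counting error only.

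Counts were summed per gene label. edgeR 4.0.16 in R 4.3.3 (filterByExpr, TMM, quasi-likelihood F test, Benjamini-Hochberg adjustment, threshold 0.05) was fitted to the 9 sEV libraries, with the contrast microglia minus astrocyte sEVs. Isoform usage was tested with diffSpliceDGE, and the difference from the cells in a fit of all 18 libraries. The steps were tested on simulated data. There the gene test called 28% of genes with a true log2 difference of 3 and 92% of those with 5. The difference from the cells was called for 65% at log2 3, and isoform usage for 24.7% at log2 5. Results that did not pass therefore do not show equal levels. Lower bounds set a group at 0 to 3 reads per library. Alternatives were DESeq2 1.42.0, other sets of libraries, no TMM, no filter, full-splice matches alone, a replicate block and leaving out each library. Promoter windows came from RefSeq, build GRCm38.p6; of the gene labels, 14896 matched a RefSeq symbol.

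Named genes passed the threshold, had groups that did not overlap and a mean of at least 20 reads in the higher group, passing over predicted genes and pseudogenes: the 8 largest differences and the 6 most abundant genes in each direction, the 6 smallest p-values for isoforms, usage and the difference from the cells, and examples of the gene lists. The comparison and the gene lists were chosen with earlier results of these data known.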

Additional observations from a re-analysis of the deposited data

Results flagged for a closer look

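For 9 of the named genes the difference between microglia sEVs and astrocyte sEVs differed from that between microglia cells and astrocyte cells, by the test of the difference itself in the fit of all 18 libraries (log2 scale, microglia minus astrocyte, edgeR adjusted p). sEV and cell libraries had separate pools and RNA kits, so fraction and pool cannot be told apart for any of them.

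For Stradb the log2 difference was -12.30 between the sEVs and -0.92 between the cells, -11.37 apart (adjusted p = 4.11e-05), and with 0 reads in microglia sEVs the size is a fitted value, not a bound. Cdip1 stood at -9.43 between the sEVs and -2.54 between the cells, -6.89 apart (adjusted p = 0.000271), likewise with 0 reads in microglia sEVs. Sparcl1 had the smaller difference in the sEVs, -2.88 against -9.15 between the cells, 6.26 apart (adjusted p = 0.00161). Spcs2 stood at 1.40 between the sEVs and -0.89 between the cells, 2.30 apart (adjusted p = 0.00161), and Gskip at -1.58 between the sEVs and 1.28 between the cells, -2.85 apart (adjusted p = 0.00313).

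Ftl1 stood at -1.99 between the sEVs and 2.68 between the cells, -4.68 apart (adjusted p = 0.000188). For Fth1 the values were 1.43 between the sEVs and 3.09 between the cells, -1.66 apart (adjusted p = 0.0313). Without TMM the difference of Fth1 was -1.05 and did not pass (adjusted p = 0.143), while that of Ftl1 was -4.04 (adjusted p = 0.0003). Rplp0 stood at -1.49 between the sEVs and 0.36 between the cells, -1.85 apart (adjusted p = 0.00578), and Rpl4 at -0.99 and 0.47, -1.45 apart (adjusted p = 0.0334). Without TMM the cell values turned negative, -0.47 for Rplp0 and -0.36 for Rpl4, and the difference of Rpl4 did not pass (-0.86, adjusted p = 0.210). When each of 12 libraries was left out in turn, Fth1 passed in 5 and Rpl4 in 4 of the 12 fits, with adjusted p-values up to 0.0971 and 0.0975 without astrocyte cell replicate 1. The other 7 genes passed in all 12.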

How the results depend on the processing

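The count of 2248 genes was 3417 (1308 higher and 2109 lower in microglia sEVs) with all 18 libraries in the fit and 1390 (616 and 774) with full-splice matches alone, and it lay between 1847 (without astrocyte sEV replicate 3) and 2178 with 1 library left out. It was 2787 with DESeq2 (1149 and 1638), 1815 with only the 6 libraries (961 and 854), 2395 without TMM (818 and 1577) and 2111 without the filter. For isoforms the count of 1713 was 2796 with 18 libraries, 1128 without the filter and 952 to 1443 with 1 library left out, over 1.5 times lower without astrocyte sEV replicates 2 (1134) or 3 (1107) or microglia sEV replicates 1 (1041), 2 (952) or 3 (1068). The 25 genes with different isoform usage were 63 with 18 libraries, 5 without the filter and 7 to 19 with 1 library left out, 7 without microglia sEV replicates 1 or 2. The 103 genes whose sEV difference differed from the cell difference were 448 with DESeq2 (189 and 259), 197 without TMM (157 and 40) and 51 to 138 with 1 library left out, with 51 without microglia cell replicate 3 and 54 without microglia cell replicate 2 or astrocyte cell replicate 1. The cause of these changes was not tested. The 2893 genes that differed between the cells were 3880 without TMM (925 and 2955) and 2235 to 3156 with 1 library left out.

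Whether replicate numbers pair the samples is not stated in the labels. Deviations of sEV libraries from their group mean correlated at -0.03 to 0.04 for the same number and at -0.08 to 0.07 for different numbers. These values cannot decide it, as both ranges lie around 0 and rest on 3 libraries a group. With the replicate block the counts were 1761 genes, 824 isoforms, 10 genes with different usage and 67 differing from the cells. Of 571 values of the 32 named genes under alternatives, 7 no longer passed the test and 0 changed sign. Unc119b did not pass with full-splice matches alone (adjusted p = 0.0811) or without astrocyte sEV replicates 2 (0.0651) or 3 (0.0617) or microglia sEV replicates 1 (0.0776), 2 (0.0668) or 3 (0.0734), and Ifit2 with full-splice matches alone (0.113). With at most 651943 reads a library and no value of 1 in the table, genes with few reads cannot be separated from 0.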

Other observations

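Some genes had 1 library far from the others of its group, and these genes were chosen after their values were seen. Actb, the cytoplasmic actin that all cells make, had 7, 2 and 65 reads in microglia sEVs and 0, 8 and 39 in astrocyte sEVs, against 2697, 2530 and 3631 in microglia cells and 43, 1161 and 69 in astrocyte cells. C1qb, a chain of the complement component C1q, had 933, 13 and 945 reads in microglia sEVs and 33, 1555 and 1971 in microglia cells. C1qc, a chain of the same protein, had 574, 408 and 439 reads in microglia sEVs and 837, 1071 and 734 in microglia cells. Lcp1, an actin bundler of leukocytes, had 63, 160 and 1688 reads in microglia sEVs and 229, 166 and 231 in microglia cells.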
